A study of Mus musculus with 6 samples.

Results

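The genes described here carry the beta-adrenergic and cAMP signal of the heart: 4 adrenoceptors, 3 G protein alpha subunits, 3 adenylyl cyclases, 5 subunits of protein kinase A (PKA), 5 phosphodiesterases, 5 genes of receptor desensitization, 2 phosphatase genes and 4 anchoring proteins. They were chosen as a list of 31 gene symbols, and all 31 were found among the 20254 genes of the deposited table and passed the filter on low values. RNA was measured in hearts of C57BL/6 mice that were wild type (WT) or knockout for Trdn-as (KO), where Trdn-as is a transcript antisense to the triadin gene Trdn. There were 3 libraries of each genotype: WT-1, WT-2, KO-1 and KO-2 from mice aged 14 months, and WT-3 and KO-3 from mice aged 5 months, so each genotype had a single library at 5 months. The sources used here do not say how the knockout was made, which cells of the heart lack the transcript, or whether a library held 1 heart or several. Values are the authors' normalized signal per gene; the median ratio of a library to the geometric mean of all 6 was 1.0015 to 1.0061, and the read depth behind the values is unknown.

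Noradrenaline and adrenaline bind the adrenoceptors on the myocyte surface. Beta-adrenoceptors act through the stimulatory G protein on adenylyl cyclase, which makes cAMP, and the inhibitory G proteins oppose this. cAMP binds the regulatory subunits of PKA and frees its catalytic subunits, which phosphorylate calcium-handling and contractile proteins so that the heart beats faster and more strongly. Phosphodiesterases break cAMP down, protein phosphatase 1 removes the phosphate groups, receptor kinases and arrestins silence occupied receptors, and anchoring proteins hold PKA and phosphodiesterases beside their targets. Alpha-1 adrenoceptors act through another G protein and another second messenger, and are included as the other catecholamine receptors of the myocyte.

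Summed values were 19810148 to 23510139 per library, and 16735 to 17722 genes had a value above 0. Trdn, read as a check of the labels, was listed at 5702, 5600 and 9104 in the WT libraries and at 3429, 3460 and 5606 in the KO libraries, lower in KO at each age. The sum of 8 myocyte marker genes was 1141931 in WT-3 and 581191 to 660794 in the other 5 libraries, with the myosin gene Myh6 the largest part at 400427. The markers did not all run this way. Ryr2 was lower in WT-3 (19053) than at 14 months (25542 to 26920), and Pln was 117175 there against 111709 in KO-3. Tnnt2 and Tnni3 were above the 14-month libraries in KO-3 too, at 121497 and 62725. KO-3 stood apart in Actc1, cardiac alpha-actin, with 42240 against 121168 to 133210 elsewhere. The Y-linked genes summed to 54.9 in WT-2 and 82.2 in KO-2, against 2495.7 to 4481.6 in the other libraries. The replicates of number 2 thus differ from the rest in this respect in both genotypes. The 14-month group holds libraries of both levels and the 5-month group only of the higher, and the age model had no term for this. Age, replicate number 3 and anything else shared by WT-3 and KO-3 cannot be told apart, and since the labels do not say which libraries come from separate animals, the p-values measure the spread between these libraries only.

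Levels per kilobase of annotated exon, averaged over the 6 libraries, ran from 6.109 to 1681. The highest were Prkar1a (1681, SD 203), the RI alpha regulatory subunit of PKA, and Prkaca (1198, SD 281), the main catalytic subunit. Gnas (1060, SD 243), which encodes the stimulatory G protein alpha subunit, Ppp1ca (947.6, SD 161), a catalytic subunit of protein phosphatase 1, and Gnai2 (843.3, SD 240), an inhibitory G protein alpha subunit, came next. The spreads of these neighbours overlap, and with the length of the longest coding transcript in place of the exon union Gnas was highest, at 3004 per kilobase. The lowest were Akap5 (6.109, SD 3.09), an anchoring protein known to bind adenylyl cyclase and PKA, Adrb3 (6.692, SD 5.11), the beta-3 adrenoceptor best known from fat, and Ppp1r1a (18.12, SD 10.1), which encodes phosphatase inhibitor 1. Adrb1, the main beta-adrenoceptor of the heart, was at 64.33 per kilobase (SD 11.1), and its values ranged from 163.8 to 262 over the 6 libraries with overlap between both genotypes and both ages.

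**Figure D1:**
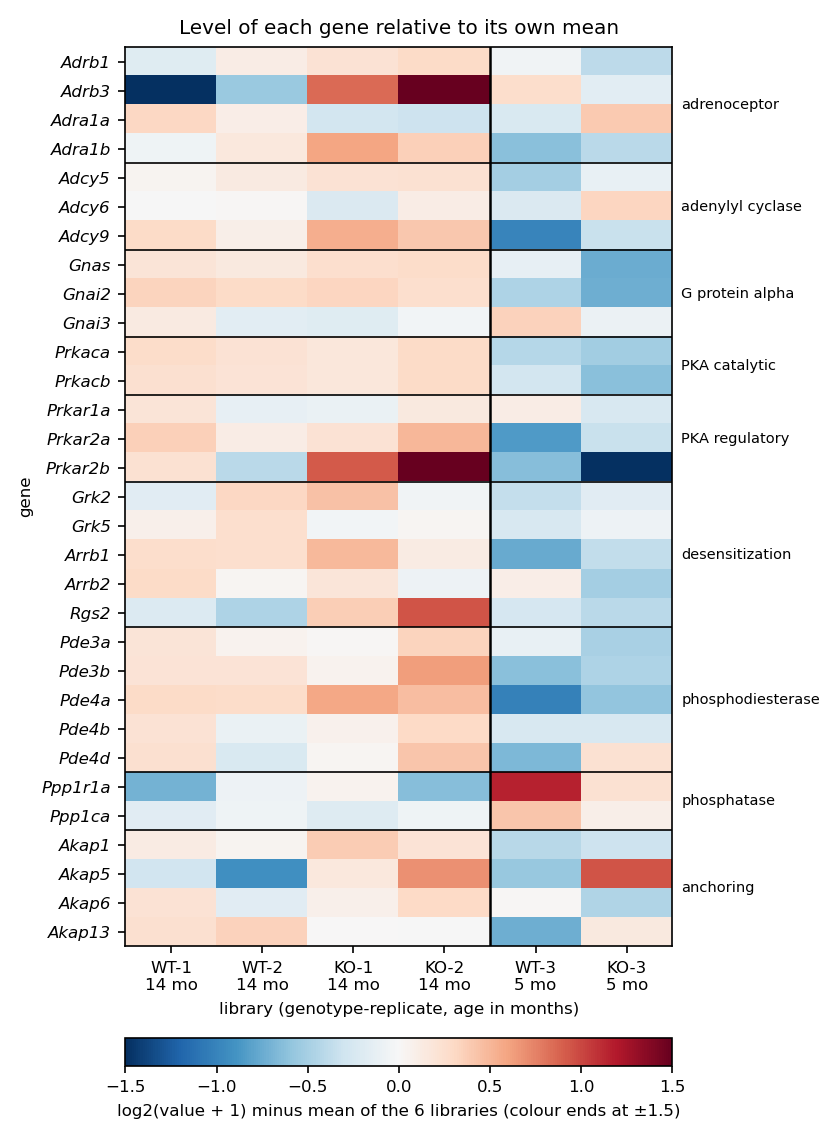
Level of each of the 31 genes (rows, grouped by role) in the 6 libraries (columns, 14 months on the left of the vertical line and 5 months on the right), as log2(value + 1) minus the gene's own mean over the libraries. The 2 columns at 5 months are mostly blue, with 7 genes above their own mean in each, while 20 to 25 genes lie above their mean in each 14-month library.

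The clearest difference in the pathway was between ages, with lower values at 5 months. Of the 31 genes, 13 were lower at 5 than at 14 months and 0 were higher by limma with genotype as a covariate, at a Benjamini-Hochberg adjusted p under 0.05 over the 13823 genes tested. Age differences were common: 33.7% of all genes tested passed, 17.7% lower and 16% higher at 5 months. The median difference of the 31 genes was -0.43 on the log2(value + 1) scale, with 24 below 0 and 7 above, against -0.02 and 51.5% below 0 over all genes. In 16 of the 31 genes both 5-month libraries lay below all 4 libraries of 14 months, against 25.7% of all genes, and in 2 genes, Ppp1r1a and Ppp1ca, they lay above, against 25% of all genes. With replicate numbers 1 and 3 alone, which are alike in Y-linked genes, 9 of the 31 passed, in a fit with 1 residual degree of freedom. Of all 13823 genes tested, 3011 passed in that fit, 1647 of them lower at 5 months. The calls of Adcy5, Gnas, Pde3b and Akap1 ended there (adjusted p = 0.179, 0.0812, 0.0881 and 0.0532) at differences of -0.44, -0.66, -0.68 and -0.62, close to those with all libraries. Scaling each library to an equal total of nuclear genes moved the median of all genes to -0.22 and the balance of all calls from 2447 lower of 4663 to 3403 lower of 4636, and 16 of the 31 genes were then called. In bulk tissue, fewer cells of a type and less RNA per cell cannot be told apart.

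Age differences over all genes moved with transcript length and base composition, and the 31 genes are longer and richer in GC by their medians. They vary in GC content, with 1 gene at up to 42%, 9 at 42 to 46% and 14 over 54%. The median age difference was 0.67 for genes whose longest transcript is up to 1 kb, 0.29 for 1 to 2 kb, -0.05 for 2 to 4 kb, -0.19 for 4 to 6 kb and -0.22 above 6 kb. By GC content it ran from 0.26 for transcripts of up to 42% GC to -0.25 for those over 54%. The 31 genes had a median length of 4.21 kb and a median GC content of 53.5%, against 3.19 kb and 49.89% for all genes tested. The comparison was therefore repeated after the trends with length and GC had been taken out of each library, a step added after the data were seen. Then 7 of the 31 genes were lower at 5 months, against 10.2% of all genes, and 1 was higher, Adcy6, against 15% of all genes. All calls then numbered 3460, with 1400 lower, and the median of the 31 genes was -0.13 against 0.05 over all genes. The 7 were Gnai2, Prkaca, Prkacb, Prkar2a, Prkar2b, Pde3b and Pde4a, and each was among the 13 above. The calls of Adra1b, Adcy5, Adcy9, Gnas, Arrb1 and Akap1 ended. What else differs with length and GC between the libraries, such as RNA quality, was not tested.

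**Figure D2:**
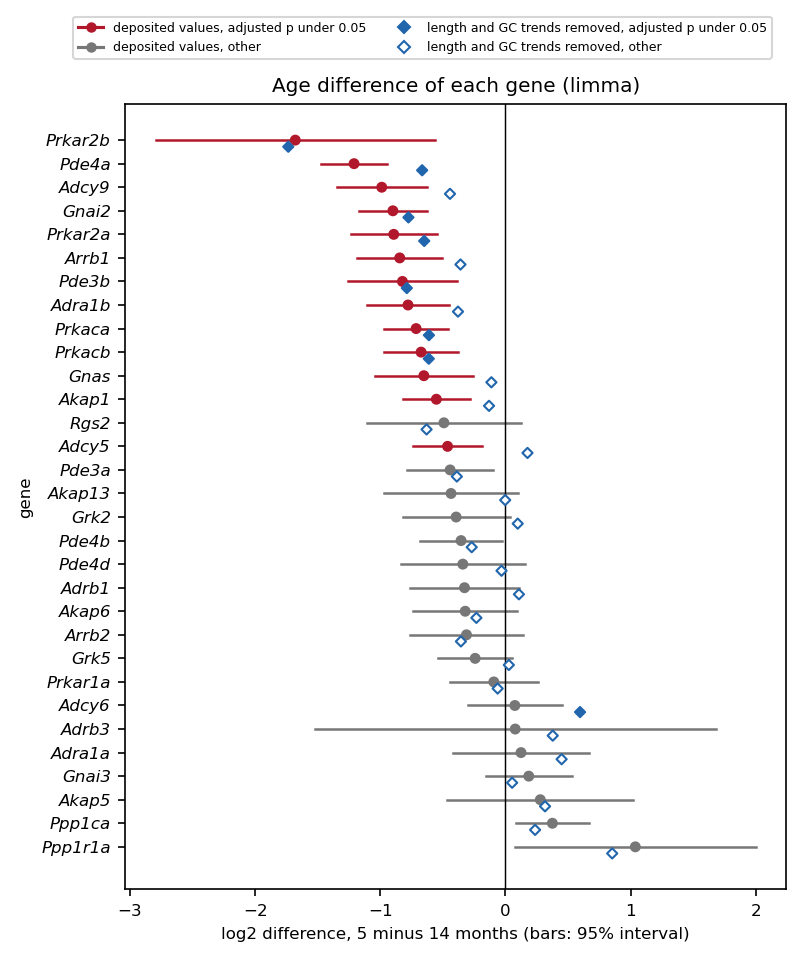
Fitted log2 difference of each gene, 5 minus 14 months (horizontal axis), with its 95% interval from the deposited values (circles and bars) and the estimate after removal of the length and GC trends (diamonds, drawn without interval). The 13 red genes all lie left of 0, and 7 of them keep a filled diamond; the diamond of Adcy5 is on the other side of 0, and Adcy6 has a filled diamond on the right.

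Both catalytic subunits of PKA were lower at 5 months, and to a like degree. Prkaca (chr8:83972993-83996443, mm10), the main catalytic subunit of the heart, had values of 3502 in WT-1, 3385 in WT-2, 3261 in KO-1 and 3555 in KO-2, and of 2153 in WT-3 and 2023 in KO-3. The 5-month libraries are both lower and the ages do not overlap, and the genotypes are interleaved. The fitted age difference was -0.71 (SE 0.11, limma adjusted p = 0.002755), and -0.61 with length and GC trends removed (adjusted p = 0.0043). Prkacb (chr3:146729574-146812990), the second catalytic subunit gene, had values of 1291, 1261, 1233 and 1335 at 14 months in the same order, and of 906.1 in WT-3 and 708.9 in KO-3. Again both 5-month libraries are below all older ones. Its age difference was -0.67 (SE 0.13, limma adjusted p = 0.006009), and -0.61 with the trends removed (adjusted p = 0.0108). Prkaca took 89.3% to 91.0% of the catalytic total per kilobase in every library, so the proportions of the pair stayed within 2 percentage points.

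The regulatory subunits of PKA were not alike. Prkar1a (chr11:109649405-109669656), the RI alpha subunit that is mostly soluble in the cytoplasm, had values of 8282 in WT-1, 6619 in WT-2, 7813 in WT-3, 6753 in KO-1, 7993 in KO-2 and 6121 in KO-3. Its ages and genotypes overlap, and the age difference of -0.09 (SE 0.15) did not pass the limma test (adjusted p = 0.6701). That result depended on the normalization: after quantile normalization the difference was -0.39 (SE 0.12) and passed (limma adjusted p = 0.0446). Prkar2a (chr9:108689314-108750436), the RII alpha subunit that binds most anchoring proteins, had values of 2307 in WT-1, 1953 in WT-2, 2099 in KO-1 and 2555 in KO-2, against 998.4 in WT-3 and 1427 in KO-3. Both 5-month libraries are lower, WT-3 the more so. The age difference was -0.89 (SE 0.15, limma adjusted p = 0.003756), and -0.65 with the trends removed (adjusted p = 0.0134). As a share of the regulatory total per kilobase, Prkar2a made up 15.6% to 17.0% at 14 months and 7.87% to 13.5% at 5 months, and Prkar1a 78.5% to 82.5% and 85.7% to 90.9%. These shares do not overlap between ages, and no test was run on them.

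Prkar2b (chr12:31958476-32061296), the RII beta subunit known best from fat and brain, had values of 162.9 in WT-1, 104.0 in WT-2, 88.78 in WT-3, 262.7 in KO-1, 392.4 in KO-2 and 44.9 in KO-3. The KO libraries hold both the highest and the lowest values. The age difference was -1.68 (SE 0.48, limma adjusted p = 0.03155), and -1.73 with the trends removed (adjusted p = 0.0355). That call ended when WT-1, KO-1, KO-2 or KO-3 was left out (adjusted p = 0.0585, 0.0858, 0.0656 and 0.267), with differences of -1.70, -1.64, -1.39 and -0.55. It also ended when no filter on low values was set (adjusted p = 0.0639).

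**Figure D3:**
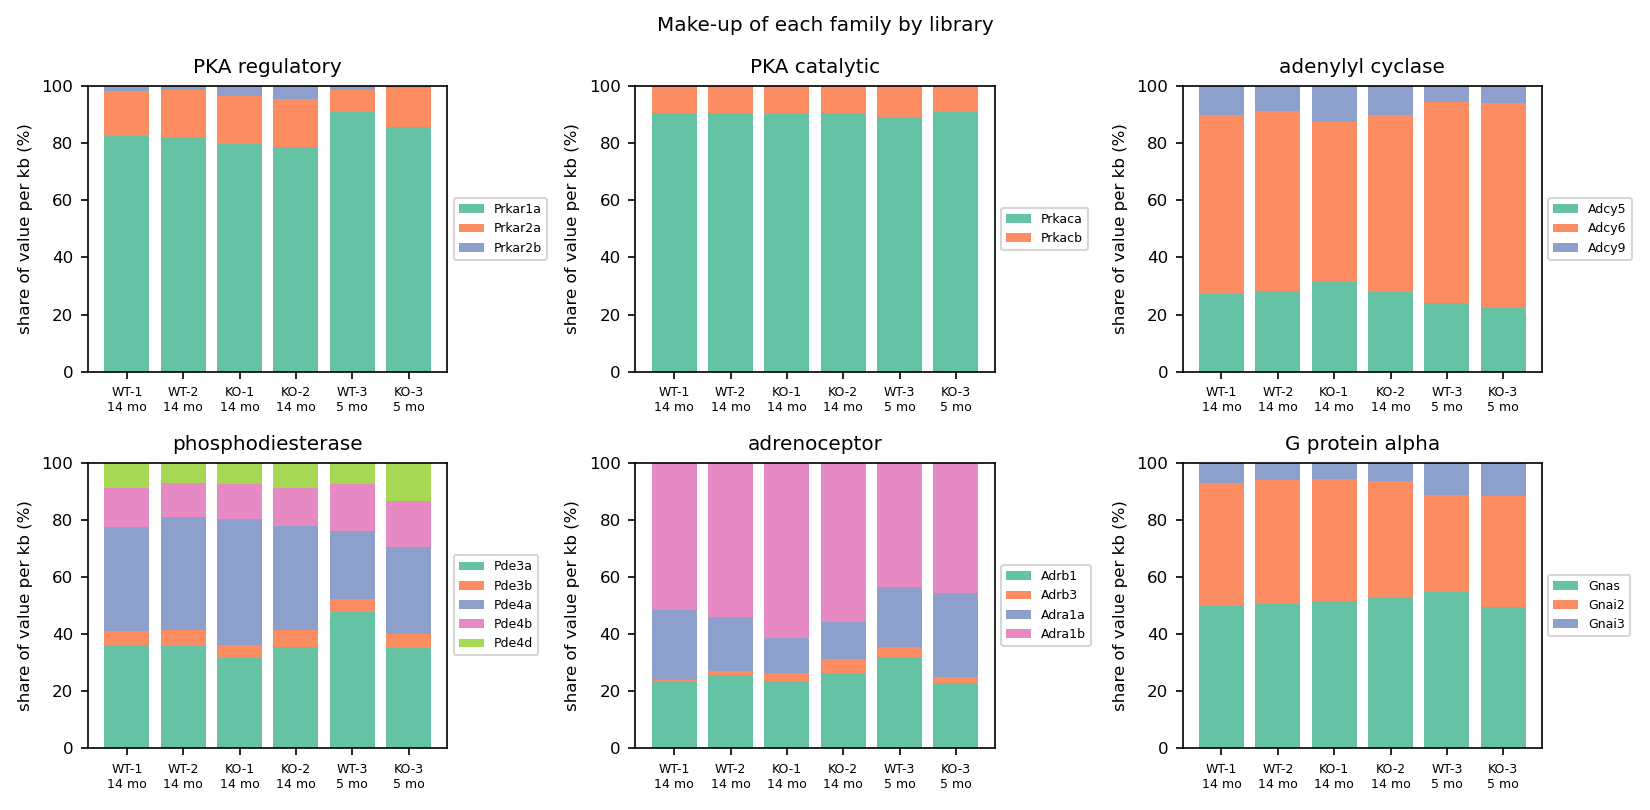
Make-up of 6 gene families in each library, as the percentage of the family's summed value per kilobase of exon (vertical axis) for each member (colours), with the 14-month libraries in the 4 left bars of each panel. Prkaca stays near 90% of the catalytic subunits, while Prkar2a, Adcy9 and Pde4a take smaller shares at 5 than at 14 months.

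Of the G protein alpha subunits, Gnai2 and Gnas were lower at 5 months. Gnai2 (chr9:107614125-107635367), which couples receptors to inhibition of adenylyl cyclase, had values of 3849 in WT-1, 3724 in WT-2, 3835 in KO-1 and 3657 in KO-2, against 2220 in WT-3 and 1836 in KO-3. The 4 libraries of 14 months lie between 3657 and 3849, and both 5-month libraries are below them. The age difference was -0.90 (SE 0.12, limma adjusted p = 0.001424), and -0.78 with the trends removed (adjusted p = 0.00171). Gnai3 (chr3:108107280-108146146), its close relative, had values of 548.3, 447.0, 442.8 and 486.5 at 14 months in the same order and of 634.8 in WT-3 and 469.0 in KO-3. Its ages overlap, with an age difference of 0.19 (SE 0.15, limma adjusted p = 0.3625), and its share of the 3 alpha subunits per kilobase was 5.72% to 7.09% at 14 months and 11.3% to 11.6% at 5 months.

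Gnas (chr2:174284320-174346744) had values of 13233 in WT-1, 12771 in WT-2, 13698 in KO-1 and 13969 in KO-2, against 10590 in WT-3 and 6879 in KO-3. KO-3 alone is far below the rest, and WT-3 is nearer to the 14-month libraries. Its fitted age difference was -0.65 (SE 0.17, limma adjusted p = 0.02104); it was -0.11 with the trends removed (adjusted p = 0.664), and the call also ended without KO-1 (adjusted p = 0.0618) or without KO-2 (adjusted p = 0.0644). Gnas is an imprinted locus with several first exons, and genes on the opposite strand (Gm20721 and Nespas) share 13.13% and 8.83% of its exon bases. Whether the authors' quantification used strand is not given in the sources used here, so reads of these genes cannot be told apart from those of Gnas.

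Among the adenylyl cyclases, Adcy9 and Adcy5 were lower at 5 months by the deposited values, and Adcy6 was not. Adcy9 (chr16:4287529-4420498), a broadly expressed cyclase, had values of 328.7 in WT-1, 287.2 in WT-2, 393.4 in KO-1 and 359.0 in KO-2, against 135.7 in WT-3 and 214.9 in KO-3. Both 5-month libraries are lower, and KO is above WT at each replicate number. Between ages the gene differed by -0.99 (SE 0.16, limma adjusted p = 0.002875), and -0.44 with the trends removed (adjusted p = 0.0535). Adcy5 (chr16:35154877-35305738), with Adcy6 one of the cyclases that predominate in heart muscle, had values of 1202 in WT-1, 1272 in WT-2, 1353 in KO-1 and 1357 in KO-2, against 816.7 in WT-3 and 1080 in KO-3. Its age difference of -0.46 (SE 0.12, limma adjusted p = 0.01996) turned to 0.18 with the trends removed (adjusted p = 0.212), and the call ended without WT-1, WT-2 or WT-3 (adjusted p = 0.0608, 0.064 and 0.0641).

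Adcy6 (chr15:98589973-98610076) had values of 2616 in WT-1, 2653 in WT-2, 2263 in WT-3, 2267 in KO-1, 2831 in KO-2 and 3274 in KO-3. KO-3 is the highest and WT-3 the lowest, so the ages overlap. The age difference was 0.08 (SE 0.16, limma adjusted p = 0.7494) by the deposited values and 0.60 with the trends removed (adjusted p = 0.0191). Per kilobase it was the most abundant of the 3 cyclases, with 55.9% to 62.7% of their total at 14 months and 70.5% to 71.6% at 5 months, while Adcy9 had 8.86% to 12.7% and 5.52% to 6.13%.

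Of the 5 phosphodiesterases, Pde4a and Pde3b were lower at 5 months. Pde4a (chr9:21165714-21213248), a cAMP-specific enzyme, had values of 1332 in WT-1, 1325 in WT-2, 1631 in KO-1 and 1503 in KO-2, against 537.9 in WT-3 and 721.9 in KO-3. The mean at 5 months was 43.5% of that at 14 months, no library of one age overlaps the other, and KO is above WT at each replicate number. By limma the age difference was -1.21 (SE 0.12), with the smallest adjusted p of the 31 genes (limma, 0.000494), and -0.67 with the trends removed (adjusted p = 0.0035). Pde3b (chr7:114415281-114539251), known for insulin-regulated cAMP breakdown in fat and liver and present in heart, had values of 220.0, 219.4, 198.3 and 295.3 at 14 months and of 122.5 in WT-3 and 137.7 in KO-3. Its age difference was -0.82 (SE 0.19, limma adjusted p = 0.01334), and -0.79 with the trends removed (adjusted p = 0.0199).

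Pde3a (chr6:141249269-141507448), which breaks down cAMP near the sarcoplasmic reticulum, had values of 2213 in WT-1, 1996 in WT-2, 1947 in KO-1 and 2424 in KO-2, against 1792 in WT-3 and 1380 in KO-3. Both 5-month libraries are below the older ones, and the age difference of -0.44 (SE 0.15) just missed the threshold (limma adjusted p = 0.05347). It passed at -0.50 by limma-voom (adjusted p = 0.0344), and by limma at -0.52 with quantile normalization (adjusted p = 0.0189). Limma also called it at -0.64 with an equal total of nuclear genes (adjusted p = 0.00742) and with a filter at 50 in 3 libraries (adjusted p = 0.0488). With the trends removed it was -0.39 and did not pass (limma adjusted p = 0.149). Pde4b (512.2 to 741.3 over the 6 libraries) and Pde4d (268.9 to 576.6), which limit cAMP near calcium channels and release channels, had age differences of -0.35 (SE 0.14) and -0.34 (SE 0.21) and did not pass. Per kilobase, Pde4a made up 36.2% to 44.0% of the 5 enzymes at 14 months and 23.8% to 30.6% at 5 months.

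Of the adrenoceptors, only Adra1b passed the age test. Adra1b (chr11:43774606-43901210), an alpha-1 receptor of myocytes, had values of 416.0 in WT-1, 486.2 in WT-2, 656.2 in KO-1 and 557.5 in KO-2, against 280.8 in WT-3 and 328.3 in KO-3. The ages do not overlap, and KO is above WT at each replicate number. Its fitted age difference was -0.78 (SE 0.14, limma adjusted p = 0.005151), and -0.38 with the trends removed (adjusted p = 0.0742). Adrb1 had an age difference of -0.33 (SE 0.19, limma adjusted p = 0.2174). Without WT-3 or without KO-3 the 5-month age is a single library, assumed to vary like those of 14 months, so the passes that follow carry no spread at 5 months. Without WT-3, Adrb1 passed at -0.64 (adjusted p = 0.0418) and Adra1a at 0.68 (adjusted p = 0.0148). In the same way Rgs2, Pde3a and Akap6 passed without WT-3, at -1.07, -0.65 and -0.63, and Akap13 and Grk5 passed without KO-3, at -1.02 and -0.41.

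Among the genes of desensitization, Arrb1 (chr7:99535466-99606771), a beta-arrestin, was lower at 5 months. Its values were 812.2 in WT-1, 804.5 in WT-2, 944.3 in KO-1 and 737.5 in KO-2, against 400.4 in WT-3 and 521.5 in KO-3. The difference was -0.84 (SE 0.15, limma adjusted p = 0.004311), and -0.36 with the trends removed (adjusted p = 0.0821). Arrb2 (chr11:70432635-70440828), the second beta-arrestin, had values of 189.5, 157.9 and 166.1 in WT-1 to WT-3 and of 175.8, 146.3 and 108.1 in KO-1 to KO-3, with overlap between ages. The receptor kinases Grk2 (666.0 to 1156) and Grk5 (921.1 to 1299) had age differences of -0.39 (SE 0.19) and -0.24 (SE 0.13), and neither passed.

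In the anchoring group, Akap1 (chr11:88830792-88864586), which holds PKA at the outer mitochondrial membrane, was lower at 5 months. Its values were 1981 in WT-1, 1871 in WT-2, 2371 in KO-1 and 2099 in KO-2, against 1362 in WT-3 and 1466 in KO-3. The difference was -0.55 (SE 0.12, limma adjusted p = 0.009051), and -0.13 with the trends removed (adjusted p = 0.378). Akap6, which anchors PKA at the nuclear envelope and sarcoplasmic reticulum, ranged from 2192 to 3674 with an age difference of -0.32 (SE 0.18) that did not pass.

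The phosphatase genes were the ones whose 5-month libraries both lay above the older ones. Their longest coding transcripts are short, 1.47 kb in Ppp1ca and 1.31 kb in Ppp1r1a. The median age difference over all tested genes of 1 to 2 kb was 0.29. Ppp1ca (chr19:4192065-4195420) had values of 2097 in WT-1, 2259 in WT-2, 2059 in KO-1 and 2258 in KO-2, against 3153 in WT-3 and 2503 in KO-3. WT-3 is the highest, and the age difference of 0.37 (SE 0.13) did not pass (limma adjusted p = 0.05105). Without KO-3, with a single library at 5 months, it did, at 0.53 (adjusted p = 0.0124). Rad9a and AC109138.6 on the other strand share 8.93% and 7.58% of its exon bases. Ppp1r1a (chr15:103530279-103538003), whose product inhibits phosphatase 1 once PKA has phosphorylated it, was near the low end of detection. It had values of 12.63, 20.17, 22.05 and 13.27 at 14 months, 48.74 in WT-3 and 25.1 in KO-3 (age difference 1.04, SE 0.42, limma adjusted p = 0.09069). With length and GC trends removed, the age difference was 0.24 for Ppp1ca and 0.85 for Ppp1r1a. Neither passed there (limma adjusted p = 0.116 and 0.151).

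Genes that respond to cAMP often carry the cAMP response element TGACGTCA, or its shorter core TGACG, which the CREB family of transcription factors binds. RefSeq promoter windows (GRCm38.p6, 250 bases before to 50 after each annotated start) were available for 20 of the 31 genes and were searched on both strands, with the core also counted inside the full element. The full element was in 1 of the 20, Prkar1a, against 3.39% of the 10513 tested genes with a window. The core was in 11 of 20, against 34.1% of the tested genes, in 6 of the 10 genes lower at 5 months that had a window and in 5 of the other 10. The core holds a CG step, and the median of CG steps per window was 28 for the 10 genes lower at 5 months and 16 for the other 10. It was 19.5 for all 20 genes and 20 for tested genes, and the shares are not matched for base composition. A gene counted if any of its windows matched, and the 20 genes had 40 windows. The shares are thus not matched for the number of windows either. The matches below, in capitals, are examples from the PKA, cyclase and phosphodiesterase genes, both lower at 5 months (Adcy9, Prkaca, Prkacb, Prkar2a and Pde4a) and not (Prkar1a and Pde4b). Prkar2b and Adcy5, also lower at 5 months, had windows with 0 matches. A match is a description of the sequence and not a bound site. Each line runs 5′ to 3′ on the gene's strand, and CGTCA is the core read on the other strand.
Adcy9, minus strand, chr16:4420498-4420542: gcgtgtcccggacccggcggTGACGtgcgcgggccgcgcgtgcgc
Prkaca, plus strand, chr8:83972952-83972996: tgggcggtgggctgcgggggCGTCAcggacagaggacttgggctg
Prkacb, minus strand, chr3:146813024-146813068: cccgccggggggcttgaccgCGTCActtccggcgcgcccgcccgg
Prkar2a, plus strand, chr9:108692119-108692163: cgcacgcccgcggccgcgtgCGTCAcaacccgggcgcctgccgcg
Pde4a, plus strand, chr9:21184031-21184075: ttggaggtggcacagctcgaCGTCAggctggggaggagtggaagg
Pde4b, plus strand, chr4:102421501-102421545: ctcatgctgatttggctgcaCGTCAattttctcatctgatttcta
Prkar1a, plus strand, chr11:109650880-109650927: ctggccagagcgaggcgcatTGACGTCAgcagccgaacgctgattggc
The core lay 24 bases before the annotated start in Adcy9, 6 in Prkaca (the nearer of 2 matches), 102 in Prkacb, 4 in Prkar2a, 50 in Pde4a and 34 in Pde4b, and the full element 49 bases before a start of Prkar1a.

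Between genotypes, none of the 31 genes passed the test. With age as a covariate, limma called 0 of the 31 and 0% of all genes, and limma-voom also called 0. The smallest adjusted p was 0.745 among the 31 genes and 0.226 among all genes. At an unadjusted p under 0.05 there were 5 of the 31 genes, Akap5, Rgs2, Adcy9, Adra1b and Pde4a, each higher in KO, against 6.08% of all genes (841). The median difference, KO minus WT, was 0.10 with 18 genes above 0 and 13 below, against -0.02 over all genes. The genotypes did not overlap in 1 of the 31 genes with KO on top, against 2.88% of all genes, and in 0 with WT on top, against 2.89%. At 14 months alone, both KO lay above both WT in 11 genes, against 17.2% of all genes, and below in 3, against 17.9%.

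**Figure D4:**
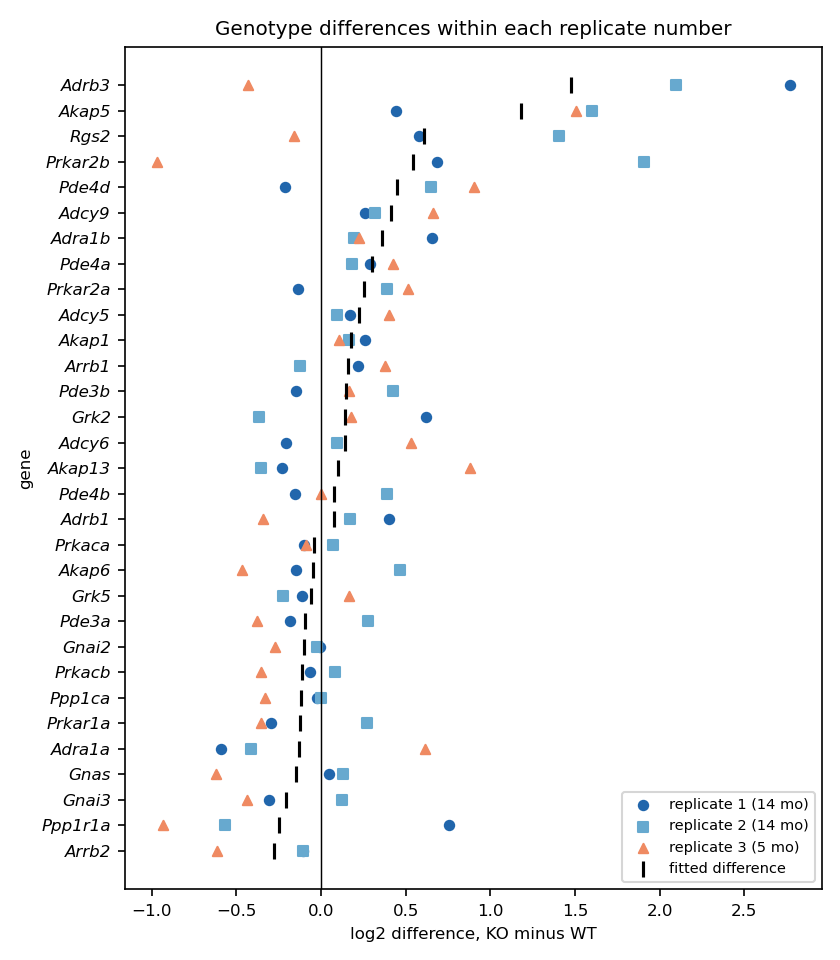
Log2 difference of each gene, KO minus WT, within replicate numbers 1 and 2 (14 months, circle and square) and 3 (5 months, triangle), with the fitted difference as a vertical tick. Akap5, Adcy9, Adra1b, Pde4a, Adcy5 and Akap1 lie right of 0 at every replicate number, and Gnai2, Arrb2 and Ppp1ca left, in part very close to 0. Adrb1, Adrb3, Gnas, Prkar2b and Rgs2 lie right at 14 months and left at 5 months, and Akap13, Adra1a and Grk5 the other way round.

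Akap5 (chr12:76324891-76334153) had the largest of these differences. Its values were 30.45 in WT-1, 19.38 in WT-2 and 24.99 in WT-3, and 41.80 in KO-1, 60.78 in KO-2 and 72.70 in KO-3. Every KO library is above every WT library, at a level per kilobase that is the lowest of the 31 genes. The fitted difference was 1.18 (SE 0.30, limma unadjusted p = 0.004589, adjusted p = 0.7448). Rgs2 (chr1:143999338-144004161), which shortens G protein signals and is itself induced by cAMP, had values of 903.3 in WT-1, 757.9 in WT-2 and 877.5 in WT-3, and 1349 in KO-1, 2013 in KO-2 and 785.4 in KO-3. KO is higher at 14 months and not at 5 months, with a fitted difference of 0.61 (SE 0.25, limma unadjusted p = 0.04201). The fitted differences of Adcy9, Adra1b and Pde4a, whose values are given above, were 0.41 (SE 0.15), 0.36 (SE 0.13) and 0.30 (SE 0.11).

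Adrb3 (chr8:27225776-27250616) had values of 3.82 in WT-1, 11.40 in WT-2 and 21.03 in WT-3, and 31.92 in KO-1, 52.04 in KO-2 and 15.34 in KO-3. It was higher in KO at 14 months and lower at 5 months, at low values throughout, with a fitted difference of 1.48 (SE 0.66) that did not pass (limma unadjusted p = 0.0538, adjusted p = 0.7448). An antisense gene, Gm45470, shares 24.85% of its exon bases. The listed fat cell markers were mixed. At 14 months both KO libraries lay above both WT libraries in 5 of 8 adipocyte markers (Adipoq, Plin1, Cidec, Cfd and Lep) and below in 1 (Plin4), and Fabp4 and Retn overlapped. Of 5 brown fat markers 3 lay above (Ucp1, Cidea and Ppargc1b) and 2 below (Cox8b and Cox7a1). At 5 months KO-3 was below WT-3 in 6 of the 8 and 4 of the 5. Plin1 and, chosen after their values were seen, Adipoq and Ucp1 are given in full. Adipoq, an adipocyte hormone, had values of 65.5, 53.32 and 136.8 in WT-1 to WT-3 and of 133.4, 245.8 and 63.31 in KO-1 to KO-3. Plin1, a coat protein of fat droplets, had 56.49, 72.55 and 54.4 in WT and 193.3, 329.6 and 33.04 in KO. Ucp1, the uncoupling protein of brown fat, had 108.5, 8.711 and 26.49 in WT and 465.1, 787.9 and 4.263 in KO. These 3 were highest in KO-2, as were Adrb3 and Prkar2b, while Plin4 was at 3530 and 3624 in WT-1 and WT-2 against 3038 and 3420 in KO-1 and KO-2. Over the whole list of 8 adipocyte markers, 0 passed the genotype test and 1 (Fabp4, higher) the age test; the summed level was 10162 to 14290 in WT and 10581 to 15045 in KO, and no marker was at 0 in every library. Of 5 brown fat markers, 0 passed the genotype test and 2 the age test (Cox8b and Cox7a1, higher at 5 months). The 5 summed to 6929 to 38361 in WT and 7010 to 27747 in KO. Cox8b (2249 to 16253 over the 6 libraries) and Cox7a1 (3483 to 21451) made up most of that sum, with Ucp1 at 4.263 to 787.9. Fabp4 (6108 to 11122) and Plin4 (2957 to 3624) made up most of the adipocyte sum. The sums thus say little of Adipoq, Plin1 or Ucp1. Whether Cox8b, Cox7a1, Fabp4 and Plin4 mark fat cells in the heart was not tested. The part of fat cells in the values of Adrb3 and Prkar2b was not tested.

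**Figure D5:**
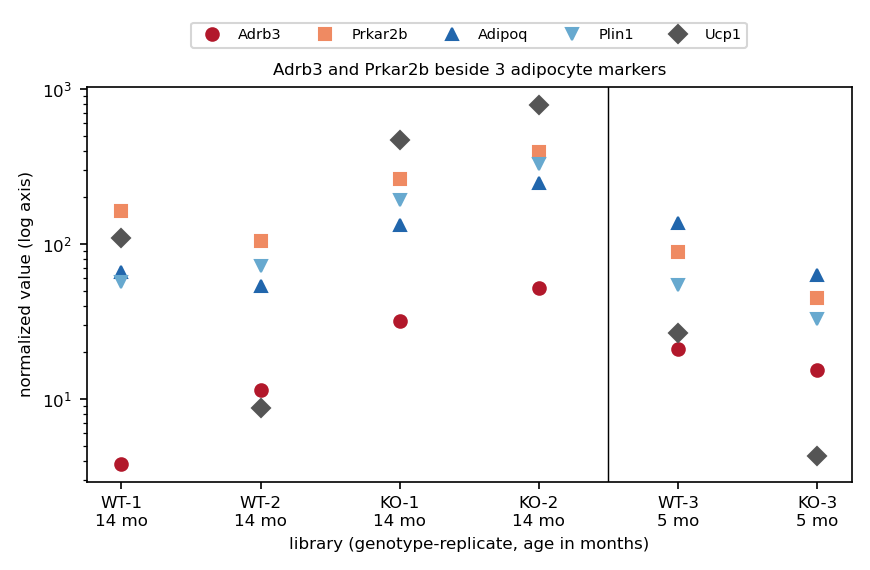
Normalized values (vertical log axis) of Adrb3 and Prkar2b and of the adipocyte markers Adipoq, Plin1 and Ucp1 in each library (horizontal axis, 5 months right of the line). At 14 months all 5 genes are higher in both KO libraries than in both WT libraries, and at 5 months all 5 are lower in KO-3 than in WT-3; the 3 markers were chosen after their values were seen, and other fat markers do not all run this way.

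Whether the genotype difference itself differed between ages was tested by the interaction term, which rests on WT-3 and KO-3 alone at 5 months. Both residual degrees of freedom of that fit come from the 14-month libraries, so the spread at 5 months is unknown and the p-values assume it to be the same. The term passed in 2 of the 31 genes, against 2.08% of all genes (287). Akap13 (chr7:75455534-75754609), an anchoring protein that also activates the GTPase RhoA, had values of 1790 in WT-1, 1935 in WT-2, 1527 in KO-1 and 1513 in KO-2, against 916.9 in WT-3 and 1688 in KO-3. KO is lower than WT at 14 months and higher at 5 months, where WT-3 is far below the other 5 libraries. The genotype difference at 5 months minus that at 14 months was 1.17 (SE 0.16, limma adjusted p = 0.02934). Gnas had -0.71 (SE 0.13, limma adjusted p = 0.04455), with KO-3 as the low library. These calls changed with the fit. With the replicate number as a block, the adjusted p was 0.0227 for Akap13, 0.0603 for Gnas and 0.043 for Adra1a, and with length and GC trends removed neither passed, at values of 0.94 for Akap13 (0.0572) and -0.81 for Gnas (0.0511). Without WT-1 (1.23 with adjusted p = 0.0789 for Akap13 and -0.74 with 0.114 for Gnas) or without WT-2 (1.12 with 0.100 and -0.69 with 0.132) neither gene passed, though the values stayed close. Gnas also missed without KO-1 (0.0547) and without KO-2 (0.0586), and WT-3 or KO-3 cannot be left out of this term. With quantile normalization the value of Gnas was -0.33 (adjusted p = 0.214) and that of Akap13 1.24 (adjusted p = 0.0511). Gnas was -0.42 by limma-voom (adjusted p = 0.198) and -0.44 with an equal total of nuclear genes (adjusted p = 0.0762).

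The next smallest interaction p-values were those of Adra1a and Prkar2b. Adra1a (chr14:66635251-66771168), the alpha-1 receptor known to protect myocytes, had values of 513.0 in WT-1, 444.5 in WT-2 and 353.4 in WT-3, and 340.9 in KO-1, 334.1 in KO-2 and 542.0 in KO-3. Both KO are below both WT at 14 months and KO-3 is above WT-3, a difference of 1.11 (SE 0.22) that just missed the threshold (limma adjusted p = 0.05325). It passed at 1.41 by limma-voom (adjusted p = 0.0194) and at 1.39 with an equal total of nuclear genes (adjusted p = 0.0275). Prkar2b had -2.26 (SE 0.50, limma adjusted p = 0.07107). Beside these, myocyte markers also differed by library: Myh6, the adult atrial and ventricular myosin heavy chain, was 400427 in WT-3 against 159955 to 196546 elsewhere, and its interaction of -1.26 passed, as did that of Actc1 at -1.62. Their part in the values of Akap13, Gnas and Adra1a was not tested.

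The wider pathway was read from 12 lists with 114 further genes, of which 108 were tested. For age, 11 were higher and 30 lower at 5 months by limma, with a median of -0.10; with length and GC trends removed, 14 were higher and 15 lower. Over all genes the shares were 16% higher and 17.7% lower, and 15% and 10.2% with the trends removed. For genotype 0 passed, with 10 at an unadjusted p under 0.05 against 6.08% of all genes, and for the interaction 0 passed. Of 3 PKA inhibitor genes, Pkia and Pkig were higher at 5 months, where the catalytic subunits were lower, and Pkib did not pass (0.35, SE 0.46, limma adjusted p = 0.5972). Pkia, which binds and blocks free catalytic subunits, had values of 3367 in WT-1, 2976 in WT-2, 3533 in KO-1 and 3219 in KO-2, against 5056 in WT-3 and 6812 in KO-3, an age difference of 0.84 (SE 0.13, limma adjusted p = 0.00282). Pkig, of the same family, had 1542, 1479, 1511 and 1542, against 3316 in WT-3 and 2257 in KO-3, a difference of 0.85 (SE 0.15, limma adjusted p = 0.004172). Both were still higher with the trends removed, the only ones of the 4 genes in that list.

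The other catalytic subunits of protein phosphatase 1, Ppp1cb and Ppp1cc, were higher at 5 months by 0.89 (SE 0.13) and 0.42 (SE 0.12), 2 of 7 genes in their list. Of these, Ppp1cb still passed with the trends removed. Ppp2ca and Ppp2cb, catalytic subunits of another phosphatase in that list, did not pass (0.15 and 0.01, limma adjusted p = 0.3421 and 0.9507). Among 5 other adenylyl cyclases, Adcy4, known from endothelium, was lower by limma with a difference of -1.13 (SE 0.14), also with the trends removed. Of 13 other phosphodiesterases, 5 were lower and 1 higher, with Pde8a at -0.90 (SE 0.16) and Pde8b at -1.15 (SE 0.23), both high-affinity cAMP enzymes that still passed with the trends removed. Of 11 other anchoring proteins, 3 were higher and 2 lower, with Akap11 at 0.70 (SE 0.14) and Akap12 at -1.41 (SE 0.20). Of 17 other G protein subunits, 1 was higher, Gng12 at 0.76 (SE 0.14), and 3 were lower, among them Gnaq, the alpha subunit that alpha-1 receptors use, at -0.74 (SE 0.12). Of 13 other receptor kinases and RGS proteins 1 was lower, Rgs12, at -0.75 (SE 0.23). With the trends removed Rgs12 no longer passed, and Rgs3 was called higher. Of 2 other adrenoceptors 0 passed.

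Targets of the pathway were mixed. Of 11 myocyte substrates of PKA, 1 was higher at 5 months, the thin filament inhibitor Tnni3 (1.11, SE 0.19), and 4 were lower, with the small heat shock protein Hspb6 at -1.36 (SE 0.21). Of 8 other cAMP effectors 3 were lower, among them the cAMP-binding membrane protein Bves (-0.57, SE 0.11) and the pacemaker channel Hcn4 (-1.35, SE 0.32). Bves still passed with length and GC trends removed, and Hcn4 did not. Of 8 genes of the CREB family and its coactivators, 4 were lower, among them Crtc3 (-1.19, SE 0.15) and the histone acetyltransferase Ep300 (-1.08, SE 0.18), and 1 was higher, Crem, which is also in the next list. Crtc3 and Ep300 still passed with the trends removed, and Crem did not. Of 10 transcripts known to be induced by cAMP, 7 were lower at 5 months and 1 higher, and 4 were lower and 0 higher with the trends removed. Nr4a2, an orphan nuclear receptor of that list, had values of 58.68, 35.08 and 11.69 in WT-1 to WT-3 and of 103.8, 109.3 and 35.95 in KO-1 to KO-3. KO is above WT at each replicate number, with a genotype difference of 1.32 (SE 0.27) that did not pass (limma adjusted p = 0.7448), and its age difference was -1.71 (SE 0.29, limma adjusted p = 0.003925). These transcripts are also induced by other signals, and neither the means of killing nor the time of day is stated in the labels used here.

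Markers of other cell types were read beside the age differences, of which 33.7% of all genes passed, 17.7% lower and 16% higher. Of 6 endothelial markers 4 were lower at 5 months, with sums of 11839 to 15583 at 14 months and 7996 to 9961 at 5 months, and Cdh5, the endothelial cadherin, at -1.35 (SE 0.14). Of 7 fibroblast markers 3 were lower, with sums of 16493 to 18989 and 11753 to 17788, and of 8 myocyte markers 4 were higher and 1 lower. Of 6 macrophage markers 2 were lower, and of 6 smooth muscle and pericyte markers 1. None of these markers was at 0 in every library. These marker calls are from the deposited values, whose age differences moved with transcript length and GC. The marker lists were not counted with those trends removed. Of the myocyte markers that are also PKA substrates, Tnni3 was still called higher with the trends removed, and Ryr2 was no longer called lower. The part of cell composition in the age differences of the 31 genes was not tested.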

How the data were processed

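The authors deposited 1 table of normalized signal per gene (Salmon 1.5.2 and mm10 are named in the submitters' processing notes). Libraries were made from total RNA of flash-frozen hearts, per the labels' protocols. The values are not whole numbers, and the steps of normalization, the strand setting and the read depth are not stated in the sources used here. Of the table, 108 broken lines were left out, and 20122 of 20254 gene IDs matched GENCODE M21, which gave symbols, positions and exon lengths. limma 3.58.1 (trend and robust options, R 4.3.3) was fitted to log2(value + 1) for the 13823 genes with a value of at least 10 in at least 3 libraries; 6431 were left out. A fold on this scale understates changes of low genes. Models were genotype plus age (3 residual degrees of freedom) and their interaction (2), with Benjamini-Hochberg adjustment over all genes and a threshold of 0.05. The code was tested on simulated data.

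The genes, gene lists and naming rule were chosen with earlier results of these data known. Every library's values are given for genes past the threshold in any comparison, for those of smallest p (6 for genotype, 6 for age, 4 for the interaction) and for the highest and lowest per length of each role; of the wider lists, the 2 of smallest p may be named. The 14-month libraries of number 2 differ from number 1 in Y-linked genes. Deviations from the genotype mean correlated between libraries of the same number with r = 0.39, 0.383 and 0.617, and as much between unlike numbers at 14 months (0.369 and 0.382), and at 14 months alone the correlation was 0.015. The value of 0.617 is that of WT-3 and KO-3, which also share their age. The main fits therefore did not treat the numbers as pairing the samples. Fits with the number as a block were made beside them for genotype and the interaction, and the block absorbs age. No 2 libraries had more than 5.46% of genes within 1% of each other. Removal of length and GC trends and the second measure of length were added after the data were seen. Protein sequences were not analysed here.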

Additional observations from a re-analysis of the deposited data

Results flagged for a closer look

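The interaction term, genotype by age, passed the threshold in 2 genes. For Gnas, KO minus WT at 5 months less that at 14 months was -0.71, with KO-3 at 6879 against 10590 in WT-3 and 12771 to 13969 at 14 months. For Akap13 it was 1.17, with WT-3 at 916.9 against 1513 to 1935 in the other 5 libraries. Each value rests on 1 library per genotype at 5 months, and the spread in the test comes from the 14-month libraries only. Neither passed with no filter, with quantile normalization or with length and GC trends removed, and Gnas did not pass with the replicate block. Among the 31 genes, 0 had a 14-month library whose gap to its nearest neighbour stood out by Dixon's ratio.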

How the results depend on the processing

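For genotype, the count of genes called was 14 with the 14-month libraries only and 0 to 5 when 1 library was left out, and 0 of the 31 genes passed in any setting run. For age, 3011 genes were called with replicate numbers 1 and 3 only, and 8 of the 31 genes with length and GC trends removed, where Adcy5 turned to 0.18. Leaving out 1 library gave 3246 to 4533 genes and 11 to 17 of the 31. For the interaction, the genes called were 4 with no filter, 12 with quantile normalization, 750 with an equal total of nuclear genes, 559 with limma-voom and 51 with length and GC trends removed. Of the 31 genes, 0 passed with no filter, 0 with quantile normalization and 0 with the trends removed. Leaving out 1 library gave 13 to 234 genes and 0 to 2 of the 31, with 15 genes without WT-1 and 13 without WT-2. The replicate block gave 359 genes and 2 of the 31 (Akap13 and Adra1a) for the interaction and 0 for genotype, so that Gnas lost its call and Adra1a gained one; it changed no other call among the 31. Over all settings, single-gene age differences kept direction and side of the threshold in 375 cases, lost a call with the same sign in 19, gained one in 17, lost one with a change of sign in 1 (Adcy5) and changed sign without a call in 19. The missing read depth and the single 5-month library per genotype limit every value here; genes as low as Adrb3, Akap5 and Ppp1r1a are the least certain.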
